A study of Homo sapiens with 14 samples.

Results

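The spliceosome and hnRNP genes examined here were the 88 gene identifiers, carrying 87 symbols, whose names begin with SRSF, HNRNP, SF3A or SF3B, SNRPA to SNRPG, SNRNP, PRPF, U2AF or LSM, out of 12202 genes in either of 2 tables deposited by the authors. Of them, 86 had siRNA values, 87 had deletion values and 85 had both. Names of 3 pseudogenes (HNRNPCP1, SNRPEP4 and SNRPGP2) were left out. HNRNPA1P48 was kept, because GENCODE release 29 annotates it as protein coding. The symbols HNRNPCL1, LSM8, LSM12, SRSF12, U2AF1L4 and U2AF1L5 were not analysed here.

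The cells were teloHAEC, an established line of human aortic endothelial cells that telomerase has made immortal. In the siRNA comparison, 4 libraries from cells given siRNA by reverse transfection against CALCRL, a G protein-coupled receptor of endothelium, were set against 4 libraries from cells given a scrambled siRNA, all lysed 24 hours after transfection. In the deletion comparison, 3 libraries from cells electroporated with Cas9 ribonucleoprotein and guides flanking enhancer-8 were set against 3 libraries from cells given Cas9 with a guide against HPRT, all collected 2 days later. Both groups of the deletion comparison therefore received Cas9, and the controls received a guide to another gene. The labels mention no selection of clones, so the deletion libraries are taken to be from bulk cultures. RNA was measured by QuantSeq 3' mRNA sequencing, which reads 1 stretch near the polyadenylated end of each transcript.

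Introns are removed by the spliceosome, which is built from small nuclear ribonucleoproteins (snRNPs): U1 recognises the 5' splice site, U2 the branch point with the help of the U2 auxiliary factor, and the U4/U6.U5 tri-snRNP then joins to form the catalytic machine. A ring of Sm proteins sits on most spliceosomal RNAs and a ring of LSM proteins on U6. SR proteins and hnRNPs bind the transcript itself and shift the choice of splice sites, and genes of both families are known for regulating their own transcripts, often through exons that send the RNA to decay.

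The targeted gene had lower counts in both comparisons. The log2 fold change of CALCRL was -1.56 (SE 0.17, adjusted p = 1.90e-17) for siRNA and -1.47 (SE 0.43, adjusted p = 0.00962) for deletion in the authors' deposited tables. HPRT1, the gene targeted in the deletion controls, stood at -0.09 (SE 0.50) in the authors' deposited table of the deletion. No value per library was used here, so library depth is unknown and a deposited standard error is the only measure of spread. Nothing in the labels says that libraries came from separate cultures, and p-values then measure only the spread between these libraries. The median standard error over all genes was 0.17 for siRNA and 0.41 for deletion. Endothelial markers were present, with 11 of 12 in each table at mean normalised counts of 42.0 to 2063 (siRNA) and 18.7 to 2277 (deletion). The markers listed for other cells were 2 of 10 for smooth muscle and fibroblasts (ACTA2 and TAGLN), 1 of 6 for leukocytes (CD68) and 3 of 5 for epithelium (KRT8, KRT18 and KRT19). The other markers of those lists, PTPRC, EPCAM, MYH11 and COL1A1 among them, and PECAM1 of the endothelial list were not analysed here.

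The siRNA against CALCRL left nearly all of these genes without a called change. By the authors' DESeq2 test, 1 of 86 rose (SNRNP27) and 1 of 86 fell (HNRNPC), which is 1.16% in each direction. Over all 11261 genes, 1.05% were called higher and 2.42% lower at the same threshold, a deposited adjusted p under 0.05. At an unadjusted p under 0.05 the count was 5 of 86, beside 1354 of 11261 over all genes. The median log2 fold change of the 86 was -0.02, beside 0.00 over all genes, and their median standard error was 0.12.

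SNRNP27, a small protein of the U4/U6.U5 tri-snRNP, went from an implied mean of 443 normalised counts in the 4 scrambled libraries to 588 in the 4 CALCRL siRNA libraries. An implied group mean is derived from the deposited mean over all libraries and the fold change. On the log2 scale its change in the authors' deposited table was 0.41 (SE 0.12, adjusted p = 0.0192), which is 133% of the control (95% interval 113% to 156%). HNRNPC, an abundant hnRNP that binds uridine tracts in nascent transcripts, went from an implied 2062 to 1721 normalised counts. On the log2 scale its change in the authors' deposited table was -0.26 (SE 0.08, adjusted p = 0.0353), or 83.4% of the control (74.9% to 93.0%). The same gene stood at -0.25 with an adjusted p of 0.0514 once the trend of fold change on GC content was removed, and so missed the threshold. SNRNP27 passed it there, at 0.43 (adjusted p = 0.0117). Neither passed when the statistics were divided by their own robust spread over all genes, or when they were read against a Student t distribution. Over all 11261 genes, 262 and 5 passed the adjusted threshold with these settings. At an unadjusted p under 0.05 they left 4 and 3 members, and the matching counts over all genes are not given here.

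The extremes of the siRNA comparison were both low-count genes. HNRNPA1L2, a retained copy of HNRNPA1, had the highest log2 fold change, 0.82 (SE 0.35, adjusted p = 0.237), at a mean of 26.9 normalised counts in the authors' deposited table. The lowest was the second identifier listed as SRSF10, ENSG00000215699, at -0.86 (SE 0.53, adjusted p = 0.572) and a mean of 7.89 in the authors' deposited table. HNRNPK, which had the highest mean count of all members in both comparisons, stood at -0.10 (SE 0.06) for siRNA in the authors' deposited table. SRSF11, with the highest mean among SR proteins, stood at -0.01 (SE 0.10) in the authors' deposited table.

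A 7-letter word in 3' UTRs, GTAACAA, had been picked out in earlier work on this same siRNA comparison from the genes that fell, so what follows is a description. It was present in 7 of the 84 members with an annotated 3' UTR (8.33%), while 1136 of 10639 genes carried it (10.7%). Sites of 6 of these genes are printed because the only member that fell, HNRNPC, has one. They are shown as 30 bases in transcript orientation, from GENCODE 29 transcripts, with the word in capitals. For each gene the transcript with the longest annotated 3' UTR was taken. A site, such as that of HNRNPUL1, may therefore lie outside the 3' UTR, or in coding sequence, of other transcripts of the gene.
HNRNPC: tcaacacaaatGTAACAAtgtatttttgtg
HNRNPD: tcattagaaagGTAACAAatgagaaatgta
HNRNPUL1: gaaccgctgggGTAACAAcaaccgggataa
PRPF39: cctttacaataGTAACAAgttctaactagt
SNRPB2 site 1: ttgtattaatgGTAACAAtgattgttctgg
SNRPB2 site 2: acatattaataGTAACAAcaacaaaaaaga
SRSF1: tacgctgtacaGTAACAAgtgttggcatta

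The HNRNPC site starts at base 596 of a 3' UTR of 2201 bases, and the sites of SNRPB2 at bases 418 and 943 of 1558. Of the 7 genes, 1 was called lower and none higher in the siRNA comparison, and their median log2 fold change was -0.07, against -0.01 for the 77 members without the word. Over all genes with the word, 150 of 1136 were called lower and the median was -0.12. The values of the other 6 ran from -0.14 for SRSF1, an SR protein, to 0.20 for PRPF39, a factor of the early U1 complex, and none of them passed the test. SNRPB2, with 2 sites, stood at 0.00 (SE 0.10) in the authors' deposited table. In the RefSeq miRNA table, 0 of 2370 mature human miRNAs carry the seed UUGUUAC (bases 2 to 8), the complement of the word.

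More of them were called in the deletion comparison, and more lower than higher. By the authors' DESeq2 test, 13 of 87 fell (14.9%) and 5 of 87 rose (5.75%). Over all 11830 genes tested, 8.44% were called lower and 7.4% higher. The median log2 fold change of the 87 was -0.16, beside 0.00 over all genes, with 50 below 0 and 37 above, and it ranged from -2.58 for SNRPF to 1.36 for SNRPA. The 21 hnRNPs and 11 SR proteins tested held 8 of the 13 genes that fell and none of those that rose. Their median mean counts were 1287 and 728 normalised counts, beside 130 over all genes. At an unadjusted p under 0.05 the count was 31 of 87, beside 3513 of 11830 over all genes.

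No member passed when the deposited statistics were divided by their robust standard deviation over all genes, which was 1.88 for the deletion and 1.11 for siRNA, or were read against a Student t distribution with 4 degrees of freedom. With either setting 0 of all 11830 genes passed, so these settings say nothing about the members in particular. At an unadjusted p under 0.05 these settings left 8 and 18 members. The matching unadjusted counts over all genes are not given here, so no excess can be read from these numbers. With the trend on the GC content of the last 500 transcript bases removed, 9 were higher and 11 lower, in place of 5 and 13, and with GC of the whole transcript 7 and 9. Of these 20 and 16 calls, 11 each were among the original 18, and the others were newly called. Over all genes, 1440 and 1542 of 11625 were called with these settings, beside 1874 of 11830 without them.

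**Figure D1:**
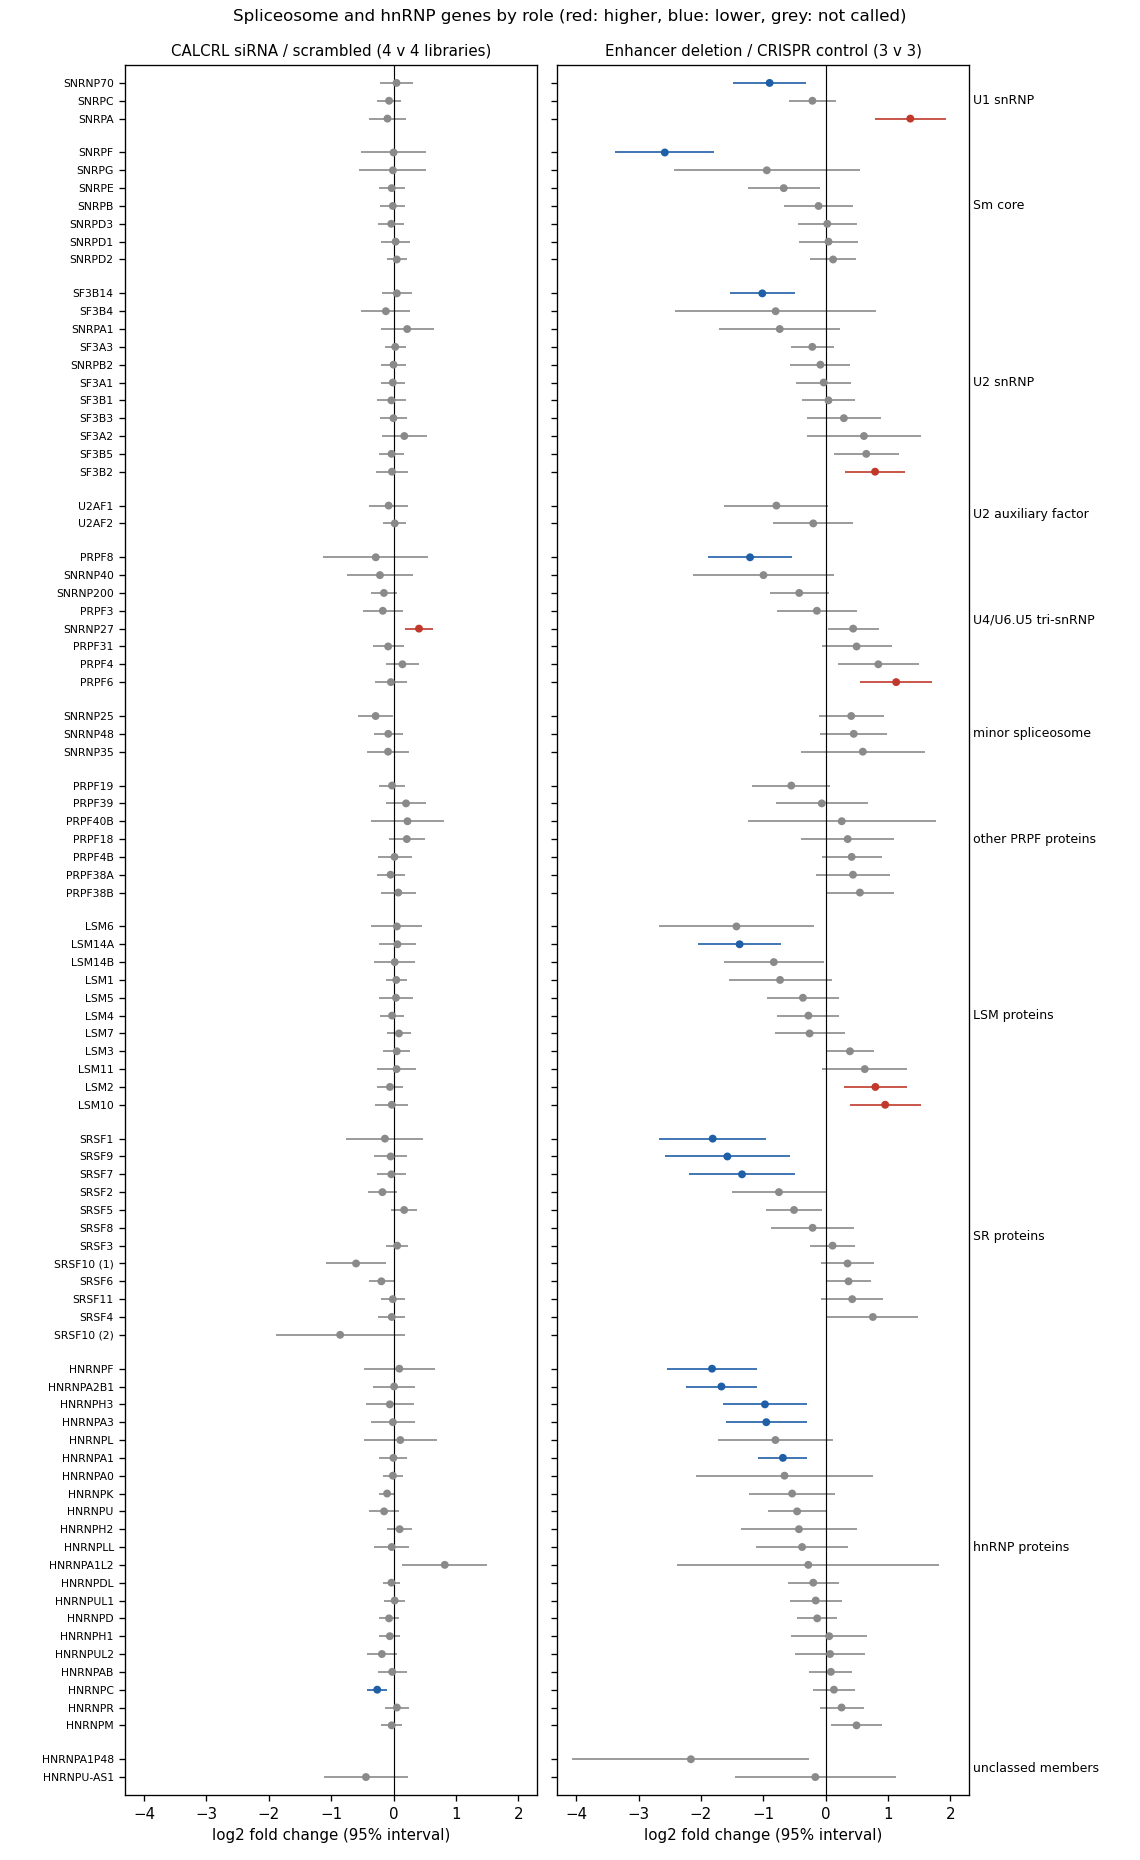
Log2 fold change of each member, siRNA (left) and deletion (right), by role in the spliceosome. Each point is a gene with its 95% interval, red where called higher, blue where called lower and grey otherwise. SRSF10 has a line for each of its 2 identifiers, and 1 gene is not drawn. The siRNA points range from -0.86 to 0.82 and the deletion points from -2.58 to 1.36.

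Among the 3 U1 snRNP proteins, SNRPA rose and SNRNP70 fell. SNRPA, the A protein of U1, which also binds and limits polyadenylation of its own transcript, went from an implied mean of 235 normalised counts in the 3 control libraries to 604 in the 3 deletion libraries. On the log2 scale its change in the authors' deposited table was 1.36 (SE 0.29, adjusted p = 0.000217), or 256% of the control (173% to 379%). SNRNP70, the U1-70K protein that contacts SR proteins at the 5' splice site, went from 640 to 344. That is a log2 fold change of -0.90 (SE 0.30, adjusted p = 0.0259) in the authors' deposited table. SNRPC, which has the highest mean count of the 3, stood at -0.21 (SE 0.19, adjusted p = 0.482) in the authors' deposited table. The 2 called genes of this particle lay on opposite sides of the control.

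In the Sm core, 1 of 7 fell and none rose. SNRPF, which encodes Sm protein F of the ring, had the lowest fold change of all 87. Its implied mean was 816 normalised counts in the controls and 137 in the deletion libraries. Its log2 value in the authors' deposited table was -2.58 (SE 0.41, adjusted p = 1.61e-07), leaving 16.7% of the control. SNRPE and SNRPG, whose proteins assemble with SNRPF as a trimer, were at -0.67 (SE 0.30) and -0.94 (SE 0.76) in the authors' deposited table, and neither passed. SNRPB, SNRPD1, SNRPD2 and SNRPD3 lay between -0.11 and 0.12. SNRPD2, with the highest mean count of the ring, stood at 0.12 (SE 0.19) in the authors' deposited table.

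Of the 11 U2 snRNP proteins, SF3B14 fell and SF3B2 rose, and both belong to the SF3B complex at the branch point. SF3B14, now named SF3B6, is the p14 subunit that lies next to the branch point adenosine. Its implied mean went from 544 to 269 normalised counts, a log2 fold change of -1.02 (SE 0.27, adjusted p = 0.00381) in the authors' deposited table. SF3B2 went from 1582 to 2743, at 0.79 (SE 0.25, adjusted p = 0.0162) in the authors' deposited table. SF3B1, the large scaffold of the complex, stood at 0.05 (SE 0.21), and SF3B5 at 0.65 (SE 0.27, adjusted p = 0.0723) in the authors' deposited table. Neither subunit of the U2 auxiliary factor passed: U2AF1 stood at -0.79 (SE 0.43, adjusted p = 0.199) and U2AF2 at -0.20 (SE 0.33) in the authors' deposited table.

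The tri-snRNP also held 1 gene of each direction among 8. PRPF6, a bridge between the U5 and U4/U6 particles, went from an implied 588 to 1288 normalised counts. Its log2 fold change was 1.13 (SE 0.30, adjusted p = 0.00363) in the authors' deposited table, or 219% of the control (147% to 328%). PRPF8, the scaffold of the catalytic centre, went from 458 to 198, at -1.21 (SE 0.35, adjusted p = 0.00824) in the authors' deposited table. SNRNP27, which rose with siRNA, stood at 0.44 (SE 0.21, adjusted p = 0.129) in the authors' deposited table of the deletion. None of the 8 other PRPF proteins and none of the 3 minor spliceosome proteins passed, with medians of 0.31 and 0.45. SNRNP25, with the highest mean count of the minor spliceosome group in the deletion, stood at 0.41 (SE 0.27) in the authors' deposited table. SNRNP48, which leads the minor spliceosome group for siRNA, stood at 0.45 (SE 0.27) in the authors' deposited table of the deletion.

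Among 11 LSM proteins, LSM10 and LSM2 rose and LSM14A fell. LSM10 is part of the U7 snRNP, which processes histone transcripts. It went from an implied 226 to 438 normalised counts, a log2 fold change of 0.96 (SE 0.29, adjusted p = 0.0135) in the authors' deposited table. LSM2, a subunit of the U6 ring and of its cytoplasmic decay counterpart, went from 276 to 481, at 0.80 (SE 0.26, adjusted p = 0.0202) in the authors' deposited table. LSM14A, a translational repressor of cytoplasmic P-bodies rather than a spliceosome subunit, went from 541 to 208. That is -1.38 (SE 0.34, adjusted p = 0.00187) in the authors' deposited table, or 38.4% of the control (24.2% to 61.0%). The partners of LSM2 in the U6 ring ranged from LSM6 at -1.43 (SE 0.63, adjusted p = 0.102) to LSM3 at 0.39 (SE 0.20, adjusted p = 0.168) in the authors' deposited table. LSM7, with the highest mean count of the group, stood at -0.26 (SE 0.29) in the authors' deposited table.

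Of the 11 SR genes tested, 3 fell and none rose, with a median of -0.21. SRSF1, the founding SR protein, went from an implied 880 to 251 normalised counts, a log2 fold change of -1.81 (SE 0.44, adjusted p = 0.00154) in the authors' deposited table. SRSF9, its close relative, went from 685 to 230, at -1.58 (SE 0.51, adjusted p = 0.0219) in the authors' deposited table. SRSF7, which shuttles and takes part in mRNA export, went from 1131 to 446, at -1.34 (SE 0.43, adjusted p = 0.0201) in the authors' deposited table. All 3 had implied deletion means below 40% of the control. The other 8 ran from SRSF2 at -0.75 (SE 0.38, adjusted p = 0.172) to SRSF4 at 0.76 (SE 0.37, adjusted p = 0.148) in the authors' deposited table. SRSF3, the closest relative of SRSF7, stood at 0.11 (SE 0.18), and SRSF11 at 0.43 (SE 0.25), in the authors' deposited table.

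The 21 hnRNP genes gave 5 that fell and none that rose, with a median of -0.38 and 15 below 0. HNRNPF, which binds G-rich tracts near exons, went from an implied 945 to 267 normalised counts. Its log2 fold change was -1.82 (SE 0.37, adjusted p = 0.000105) in the authors' deposited table, or 28.3% of the control (17.1% to 46.9%). HNRNPA2B1, a regulator of splicing and RNA transport, went from 2712 to 852, at -1.67 (SE 0.29, adjusted p = 3.35e-06) in the authors' deposited table, or 31.4% of the control. HNRNPH3, a relative of HNRNPF, went from 710 to 362 at -0.97 (SE 0.34, adjusted p = 0.0344), and HNRNPA3 from 1289 to 666 at -0.95 (SE 0.33, adjusted p = 0.0329), in the authors' deposited table. HNRNPA1, the best known splicing repressor of the family, went from 1587 to 987, at -0.68 (SE 0.20, adjusted p = 0.00966) in the authors' deposited table.

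The remaining hnRNPs did not pass. HNRNPH1, the near relative of HNRNPF and HNRNPH3, stood at 0.06 (SE 0.31) in the authors' deposited table. HNRNPC, which fell with siRNA, stood at 0.13 (SE 0.17), and HNRNPK at -0.54 (SE 0.35, adjusted p = 0.306), in the authors' deposited table of the deletion. The highest of the family was HNRNPM at 0.50 (SE 0.21, adjusted p = 0.0865) in the authors' deposited table. HNRNPA1P48, outside the role groups, stood at -2.16 (SE 0.97, adjusted p = 0.109) with a mean of 27.5 normalised counts in the authors' deposited table. HNRNPU-AS1, an antisense RNA of HNRNPU that cannot be told from it if strand was not used, stood at -0.16 (SE 0.66) in the authors' deposited table. In bulk samples, fewer cells of a type and less RNA per cell cannot be told apart. Of the 11 endothelial markers, 6 were above 0 and 5 below in the deletion (median 0.05 on the log2 scale). Their implied summed means were 9983 normalised counts in the controls and 9118 in the deletion libraries. CDH5 (-1.44, SE 0.35, adjusted p = 0.00142) and KDR (-1.05, SE 0.31, adjusted p = 0.00966) were the 2 called lower, and none was called higher, in the authors' deposited table. The 3 epithelial markers were above 0, with implied sums of 4034 and 7116, and KRT18 (1.13, SE 0.30, adjusted p = 0.00425) was the 1 called, in the authors' deposited table. Their part in these results was not tested.

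**Figure D2:**
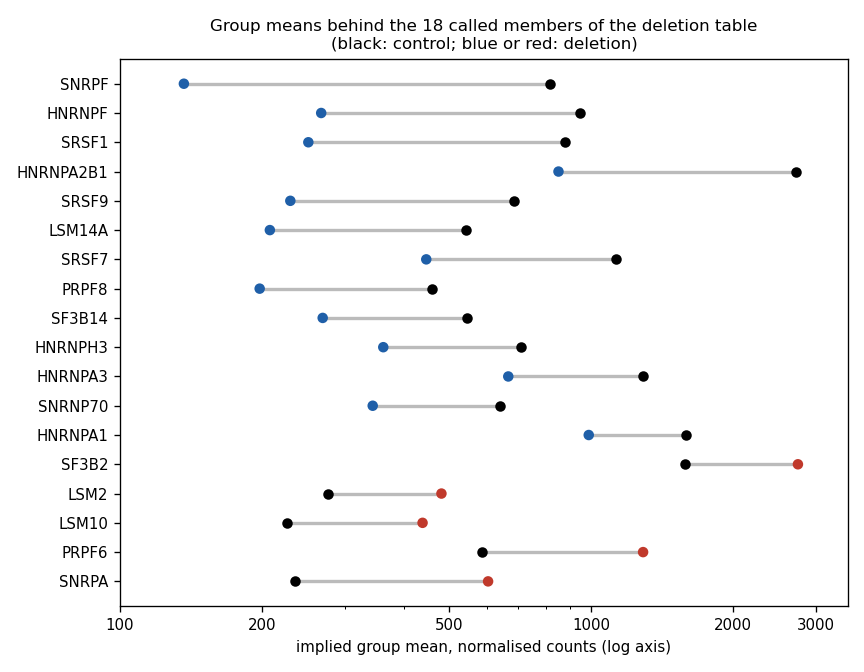
Implied mean normalised counts of the 18 called members in the 3 control libraries (black) and the 3 enhancer deletion libraries (blue where lower, red where higher), on a log axis. A horizontal line joins the 2 means of a gene. SNRPF has the longest line, from 816 to 137.

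The next question was whether a gene's change differed between the treatments, which share no libraries. The log2 fold change of siRNA minus that of deletion was tested per gene from the 2 deposited standard errors, with Benjamini-Hochberg adjustment over the 10891 genes tested in both. The difference passed for 17 of 85 members, 10 with the siRNA value higher and 7 with it lower. Over all genes, 7.22% passed with a higher siRNA value and 6.49% with a lower one. At an unadjusted p under 0.05 the counts were 27 of 85 members and 3084 of 10891 genes. SNRPF differed by 2.58 (SE 0.49, adjusted p = 4.40e-05), HNRNPF by 1.92 (SE 0.47, adjusted p = 0.00232) and HNRNPA2B1 by 1.68 (SE 0.34, adjusted p = 0.000133). In the opposite direction, SNRPA differed by -1.46 (SE 0.33, adjusted p = 0.000689) and PRPF6 by -1.17 (SE 0.32, adjusted p = 0.00732).

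The 18 genes called in the deletion were picked by values that also enter this difference, so their passing is no separate support. Of these 18, 15 passed the test of the difference. The 3 that did not were PRPF8, HNRNPA3 and HNRNPH3. PRPF8 differed by 0.93 (SE 0.55, adjusted p = 0.258), with a 95% interval of -0.16 to 2.01. HNRNPA3 and HNRNPH3 had adjusted p-values of 0.0731 and 0.0981. The other 2 that passed, SRSF10 and SRSF6, were called in neither comparison on its own. SRSF6 stood at -0.19 (SE 0.10) with siRNA and 0.37 (SE 0.18) with deletion in the authors' deposited tables, a difference of -0.56 (SE 0.21, adjusted p = 0.0499). SNRNP27, the gene that rose with siRNA, differed by -0.03 (SE 0.24, adjusted p = 0.947), and HNRNPC by -0.39 (SE 0.19, adjusted p = 0.146). Across the 85 members the siRNA and deletion values had Spearman's rho of -0.04 and Pearson's r of 0.00, as a description across genes that share their libraries. None of the 17 differences passed with a Student t reference (19 unadjusted) or with the statistics divided by their robust spread (7 unadjusted). The matching unadjusted counts over all genes are not given here. With either setting 0 of all 10891 genes passed, so neither sets the members apart. A total of 11 passed with the GC trend of the last 500 bases removed.

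**Figure D3:**
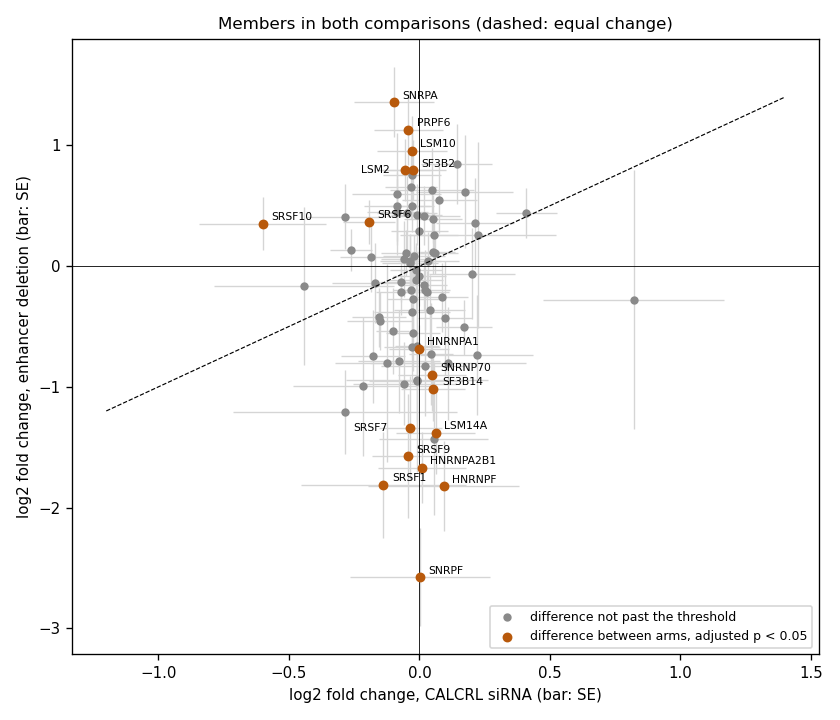
Deletion log2 fold change (vertical) against siRNA log2 fold change (horizontal) of the 85 members in both tables, with 1 SE in each direction. Orange points are the 17 whose difference passed at an adjusted p under 0.05, and the dashed line marks equal change. The orange points spread along the vertical axis, from SNRPF at -2.58 to SNRPA at 1.36, with siRNA values near 0 for all but SRSF10.

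SRSF10, an SR protein that represses splicing when dephosphorylated, needs a separate remark. Its identifier ENSG00000188529 had a mean of 34.2 normalised counts over the siRNA libraries and 728 over the deletion libraries. Relative to the sum of each table this is an 18.8-fold higher count, the highest ratio of the 10894 genes in both. The second identifier with the same symbol, ENSG00000215699, was counted in the siRNA table only. The authors' deposited tables gave SRSF10 a log2 fold change of -0.60 (SE 0.24, adjusted p = 0.206) for siRNA and 0.35 (SE 0.22, adjusted p = 0.274) for deletion. Their difference was -0.95 (SE 0.33, adjusted p = 0.0332). What was counted as SRSF10 in the 2 tables cannot be taken to be the same, and the cause was not tested.

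For 7 of the 13 members that fell in the deletion, the spread between the siRNA libraries was also wide. For each gene, the siRNA standard error was divided by a running median of the standard errors of genes with similar mean counts, so that a ratio of 1 is usual spread. Cut-offs of 2 and 1.5 were chosen after the values were seen. The ratio was over 2 for 6 members: PRPF8 (3.90), HNRNPF (2.95), SRSF1 (2.95), SNRPG (2.68), HNRNPL (2.53) and SNRPF (2.47). All 6 were below 0 in the deletion, with a median of -1.51, and 4 of them fell. Over 1.5 there were 11 members, all below 0, of which 7 fell. The 74 members with a ratio up to 1.5 were split 37 above 0 and 37 below, with a median of 0.00, and 5 rose and 6 fell. Among all genes, 207 of the 214 with a ratio over 2 were below 0 in the deletion and 144 were called lower. Of the 499 with a ratio over 1.5, 417 were below 0 and 264 were called lower. Of the 10392 with a ratio up to 1.5, 825 were called higher and 707 lower. The pattern was thus also present over the whole table. The siRNA fold changes of these 6 genes lay between -0.28 and 0.11. Which libraries carry the extra spread cannot be seen without values per library, and its part in the deletion result was not tested.

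The base composition of the transcript ends also moved with the deletion values. The last 500 bases of the 5 genes that rose had a median GC content of 53.6% (47.8% to 58.8%), and those of the 13 that fell 34.4% (28.4% to 64.0%). The 3' UTRs of the 5 had a median length of 328 bases (107 to 563), those of the 13 2127 bases (173 to 4566). The medians were 39.4% and 1230 bases over all members, and 42% and 1508 bases over all genes of the deletion comparison. Both measures are of the annotated transcript with the longest 3' UTR, and the transcript ends read in these libraries may differ. Of 52 members at or below the median GC of all genes, 11 fell and none rose, and of 32 above it, 2 fell (PRPF8 and SNRNP70) and 5 rose. Over all genes the same split gave 620 called lower and 158 higher of 5523 at or below the median, and 340 lower and 680 higher of 5223 above it. Across members the Spearman correlation of deletion fold change with GC was 0.17 (n = 85), and across all genes 0.30 (n = 11625), given as descriptions since genes share their libraries. For siRNA the values were -0.02 and 0.07. With the GC trend removed, SNRPF stood at -2.35 (adjusted p = 2.13e-06), HNRNPF at -1.59 (adjusted p = 0.00103), SRSF1 at -1.59 (adjusted p = 0.00701) and SNRPA at 0.95 (adjusted p = 0.0155). SNRNP70 moved away from 0, to -1.52 (adjusted p = 5.29e-05). For 7 genes the call was lost. PRPF6 moved to 0.65 (adjusted p = 0.129), LSM10 to 0.65 (adjusted p = 0.121) and LSM2 to 0.67 (adjusted p = 0.0651). HNRNPA1 moved to -0.53 (adjusted p = 0.0569), HNRNPA3 to -0.65 (adjusted p = 0.187), HNRNPH3 to -0.74 (adjusted p = 0.133) and SRSF7 to -1.12 (adjusted p = 0.0635).

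**Figure D4:**
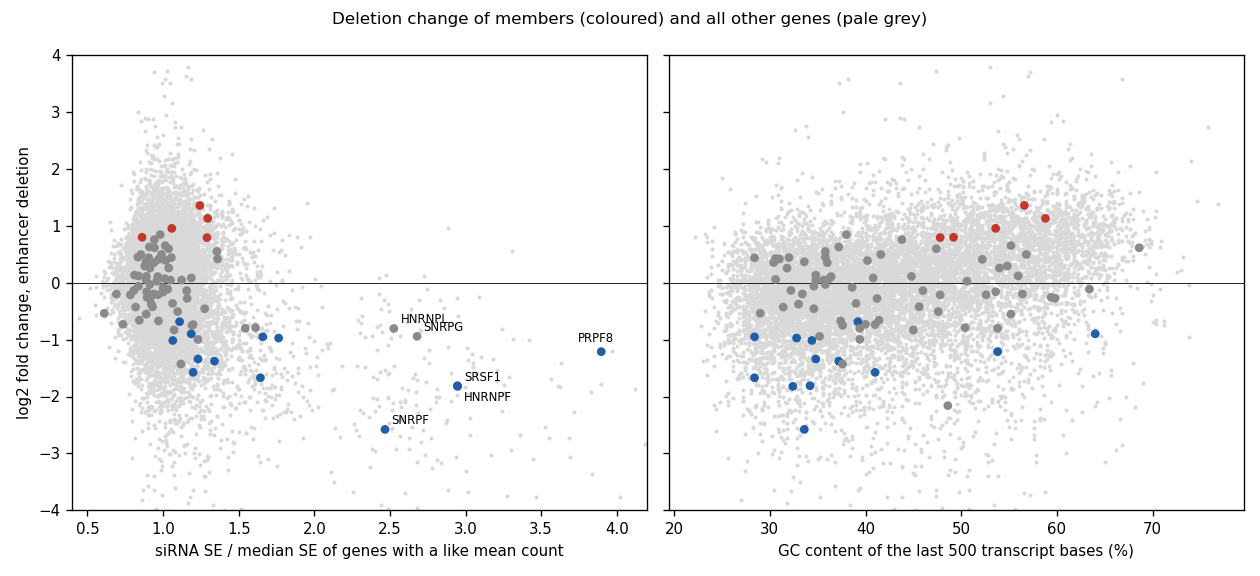
Deletion log2 fold change against the siRNA standard error relative to genes of like mean count (left), and against the GC content of the last 500 transcript bases in percent (right). Members are red (called higher), blue (called lower) or dark grey, and pale grey points are other genes, with 64 genes outside the axis limits not drawn. The 6 members with a ratio over 2 all lie below 0, and the 5 red points lie at a GC content of 47.8% to 58.8%.

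Many of these genes have near-identical processed copies elsewhere in the genome, and reads from the 3' end can match both. Of the 87, 29 had an annotated pseudogene named after them, and among these 7 fell and none rose, with a median of -0.46. Among the 58 without one, 6 fell and 5 rose, with a median of -0.05. Over all genes with such a copy, 159 of 1374 were called lower and 134 higher. HNRNPA1 had 74 pseudogenes named after it, SNRPG 20, SNRPC 18, HNRNPA3 16, HNRNPC 9, SNRPE 9 and SNRPF 4, and their values are uncertain to that extent. HNRNPA2B1, LSM14A, SRSF7, PRPF8, SF3B14 and SNRNP70 fell and had none. The counts go by name, so copies named otherwise are not in them.

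Promoters are printed for the 4 called genes farthest from 0 on either side, to show what their start regions hold: SNRPF and HNRNPF, which fell, and SNRPA and PRPF6, which rose. Each runs from 250 bases before to 50 after the annotated start, in transcript orientation, from RefSeq on GRCh38.p14. Capitals mark matches, on either strand, to the CCAAT box, to the GC box with letters GGGCGG, or to the ETS core with letters CCGGAAG, which do not overlap one another here. SNRPF lies at chr12:95858702-95859001 on the plus strand, HNRNPF at chr10:43408808-43409107 on the minus strand, SNRPA at chr19:40750953-40751252 and PRPF6 at chr20:63980882-63981181, both on the plus strand.
SNRPF: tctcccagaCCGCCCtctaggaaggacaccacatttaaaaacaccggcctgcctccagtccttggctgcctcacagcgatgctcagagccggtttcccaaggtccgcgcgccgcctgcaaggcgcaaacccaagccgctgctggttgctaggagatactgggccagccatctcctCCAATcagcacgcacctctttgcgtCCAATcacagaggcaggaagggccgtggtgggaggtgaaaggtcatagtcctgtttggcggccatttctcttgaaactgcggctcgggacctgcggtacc
HNRNPF: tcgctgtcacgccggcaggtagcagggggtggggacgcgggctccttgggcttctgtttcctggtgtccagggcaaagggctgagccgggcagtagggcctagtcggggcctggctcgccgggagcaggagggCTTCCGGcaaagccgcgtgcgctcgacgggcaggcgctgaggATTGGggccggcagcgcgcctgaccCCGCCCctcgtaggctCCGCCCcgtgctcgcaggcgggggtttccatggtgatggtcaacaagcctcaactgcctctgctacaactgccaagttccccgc
SNRPA: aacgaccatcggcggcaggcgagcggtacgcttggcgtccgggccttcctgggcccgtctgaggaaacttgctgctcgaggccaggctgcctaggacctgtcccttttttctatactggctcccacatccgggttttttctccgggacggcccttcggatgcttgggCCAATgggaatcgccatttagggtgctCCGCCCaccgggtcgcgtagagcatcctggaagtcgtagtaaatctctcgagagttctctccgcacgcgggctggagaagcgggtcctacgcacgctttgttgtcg
PRPF6: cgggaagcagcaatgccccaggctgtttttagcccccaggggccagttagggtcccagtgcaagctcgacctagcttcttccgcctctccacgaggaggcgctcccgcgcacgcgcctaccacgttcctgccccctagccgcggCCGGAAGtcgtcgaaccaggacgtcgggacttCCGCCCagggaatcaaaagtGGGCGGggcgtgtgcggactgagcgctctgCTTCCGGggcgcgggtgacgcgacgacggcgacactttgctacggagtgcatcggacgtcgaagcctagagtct

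All 4 held a GC box, SNRPF, HNRNPF and SNRPA held CCAAT, and HNRNPF and PRPF6 held the ETS core. A promoter was matched for 72 of the 87 symbols. The GC box was in 66.7% of them and in 44.6% of all 27305 promoters, CCAAT in 45.8% and 35.7%, and the ETS core in 33.3% and 10.7%. The 27305 promoters were not limited to genes expressed in these cells, and no share over such genes was computed. TATAAA was in 6 of the 72 and in 3264 of the 27305. GAANNTTC, a pair of heat shock element units, was in 5.56% and 6.87%, and GCATGCGC, part of an NRF1 motif, in 5.56% and 3.27%. Split by the deletion call, the ETS core was in 2 of 11 promoters of genes that fell, 2 of 5 that rose and 20 of 56 not called. A match is a string of letters and says nothing of binding in these cells.

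Genes that work with these proteins were taken from 5 lists of splicing genes outside the name rule. In the deletion, 10 of 105 rose and 8 of 105 fell, with a median log2 fold change of 0.23. These shares of 9.52% and 7.62% stand beside 7.4% and 8.44% over all genes, and the median of all genes was 0.00. Among helicases and activation factors 5 of 37 rose and 2 fell, the largest values being AQR at -0.95 (SE 0.32, adjusted p = 0.0290) and CTNNBL1 at 0.90 (SE 0.32, adjusted p = 0.0354) in the authors' deposited table. Among 17 exon junction and SR-related genes, MAGOH, a core subunit of the exon junction complex, fell to -2.01 (SE 0.41, adjusted p = 9.20e-05) and SRRM1 rose to 0.63 (SE 0.23, adjusted p = 0.0405) in the authors' deposited table. Of 7 SR protein kinases 1 fell, CLK3 at -1.24 (SE 0.40, adjusted p = 0.0216), and of 16 snRNP assembly genes 1 fell, GEMIN6 at -1.16 (SE 0.43, adjusted p = 0.0461), in the authors' deposited table.

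Other splicing regulators gave 4 that rose and 3 that fell among 28. RBMX, the X-linked hnRNP G, led them at 1.24 (SE 0.28, adjusted p = 0.000472), followed by RBM39, a partner of U2AF, at 1.04 (SE 0.32, adjusted p = 0.0156), in the authors' deposited table. With siRNA, 9 of 103 had an unadjusted p under 0.05, beside 1354 of 11261 over all genes. By the adjusted p, none of 103 rose and 3 fell (2.91%), beside 1.05% and 2.42% over all genes. These were MBNL1, a splicing regulator that binds its own transcript, at -0.65 (SE 0.09, adjusted p = 6.60e-11), COIL, the coilin of Cajal bodies where snRNPs mature, at -0.50 (SE 0.13, adjusted p = 0.00447), and SRRM2, a scaffold of nuclear speckles, at -0.36 (SE 0.11, adjusted p = 0.0384), in the authors' deposited table.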

How the data were processed

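The 14 QuantSeq 3' libraries were analysed through 2 tables of the authors' own results, 1 per comparison. Per the file headers, the authors counted reads with featureCounts and compared groups with DESeq2. The deposited tables hold for every gene its mean normalised count, the log2 fold change with standard error and Wald score, and p-values before and after adjustment. The submitters' processing notes name hg19 and edgeR 3.24.3 without saying what for. The aligner and the use of strand are not given in the sources used here, so genes that overlap others are uncertain. No count per library was used, so library depth is unknown. The deposited adjusted p-values equalled a Benjamini-Hochberg adjustment over each table.

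Computed here with Python 3.11.15, pandas 2.3.3, scipy 1.17.1 and statsmodels 0.14.6 were 95% intervals, implied group means, differences between comparisons, and the alternatives (6 run). GC trends were removed by lowess with a span of 0.3. Transcript ends and 3' UTRs came from GENCODE 29, matched for 85 and 84 of 88 identifiers. Both were read from the transcript with the longest annotated 3' UTR of each gene.

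Named were members called in either comparison or in the difference, before any alternative setting. Also named were those with the highest mean count of each role, those at either extreme, and up to 2 called genes of each related list and comparison. Members called only with an alternative setting were not named on that ground. SNRPE, SNRPG, further relatives of called genes and the 4 promoters were added after their values were seen. Members and lists were chosen with earlier results of these data known. The values of 1 member and 1 sequence site are not reported here.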

Additional observations from a re-analysis of the deposited data

Results flagged for a closer look

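For 17 genes the siRNA fold change differed from the deletion fold change by the test of the difference (siRNA minus deletion, log2). The siRNA value was higher for SNRPF (2.58), HNRNPF (1.92), HNRNPA2B1 (1.68), SRSF1 (1.67), SRSF9 (1.53), LSM14A (1.44), SRSF7 (1.31), SF3B14 (1.07), SNRNP70 (0.95) and HNRNPA1 (0.68). It was lower for SNRPA (-1.46), PRPF6 (-1.17), LSM10 (-0.98), SRSF10 (-0.95), LSM2 (-0.86), SF3B2 (-0.82) and SRSF6 (-0.56). Treatment, time after treatment, delivery and control differ together between the comparisons, so their shares in a difference cannot be told apart.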

How the results depend on the processing

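No paired analysis was possible because values of single libraries were not used here. Likewise the replicate block and leaving out each replicate in turn were not run, since they need them. Members called numbered 2 for siRNA, 18 for deletion and 17 for the difference. With a Student t reference, and with statistics divided by their robust SD, they numbered 0, 0 and 0. At an unadjusted p under 0.05 these became 3, 18 and 19 with Student t, and 4, 8 and 7 with the robust SD. The matching unadjusted counts over all genes are not given here. Over all genes, these settings also left 0 deletion calls and 0 differences, and 5 (Student t) and 262 (robust SD) siRNA calls. With the GC trend of the last 500 bases removed the members called numbered 1, 20 and 11, of which 11 deletion calls and 9 differences were among the original ones. With that of the whole transcript they numbered 1, 16 and 13. Without members that have a pseudogene named after them they numbered 1, 11 and 11, which follows from fewer genes being counted. Restricting to a mean of at least 100 normalised counts gave 2 of 75, 19 of 80 and 17 of 75 members. Over all genes with such means the calls were 360 of 6437, 1630 of 6676 and 1332 of 6096. No called value changed sign. Where a call was lost with a GC trend removed, the cause was not tested.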
